A study of Mus musculus with 2 samples.

Results

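The genes described here are 10 transcription factor genes of the megakaryocyte and erythroid lineages, Gata1, Gata2, Gfi1b, Nfe2, Fli1, Runx1, Tal1, Zfpm1, Mef2c and Meis1. They were taken by gene symbol from the 32285 genes of the count matrices, and each symbol matched 1 row in both libraries. The material was mouse hematopoietic stem cells, with blood given as the tissue, kept in suspension for 48 h with the compound RO-3066 or with its vehicle DMSO. Each treatment had 1 single-cell library of the 10x Genomics 3' kind, so no difference between treatments could be set against replicate libraries and none was tested. The labels used here name no dose or target of RO-3066 and no strain, age or number of mice. Levels are given as unique molecular identifiers (UMIs) of a gene per 1000000 UMIs of all genes (CPM), summed over the cells of a class, with 95% exact intervals that cover counting error only.

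Megakaryocytes and erythroid cells arise from shared progenitors, and a small set of transcription factors sets up both programmes. GATA factors bind with the cofactor encoded by Zfpm1 and with complexes built on Tal1, while Runx1, the ETS factor Fli1 and the NF-E2 subunit encoded by Nfe2 act on platelet genes. In mouse stem cells Gata2, Runx1, Tal1 and Meis1 are already in use, and Gata1 is known as a gene of committed megakaryocyte, erythroid, mast and eosinophil cells. Pf4 encodes a chemokine of platelet granules, and cells with at least 1% of their UMIs from Pf4 are called Pf4-high here.

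Gata1 and Gfi1b were the pair of the 45 detected in the same cells most often beyond the product of their shares, so the 250 bases before the RefSeq start of each are shown (GRCm38.p6, both on the minus strand, written 5' to 3'). Capitals mark a GATA word on either strand, which is AGATAA in its plain form, TGATAA where the first base differs, AGATAG where the last base differs and TGATAG where both do. The Gfi1b window lies at chr2:28621983-28622232, just before the gene, and the Gata1 window at chrX:7967911-7968160, inside the longer Gata1 model of GENCODE.
Gfi1b: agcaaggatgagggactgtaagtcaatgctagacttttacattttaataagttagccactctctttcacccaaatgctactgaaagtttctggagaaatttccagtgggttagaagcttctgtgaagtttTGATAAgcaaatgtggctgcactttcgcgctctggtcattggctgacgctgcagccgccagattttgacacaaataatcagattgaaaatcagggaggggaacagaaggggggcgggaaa
Gata1: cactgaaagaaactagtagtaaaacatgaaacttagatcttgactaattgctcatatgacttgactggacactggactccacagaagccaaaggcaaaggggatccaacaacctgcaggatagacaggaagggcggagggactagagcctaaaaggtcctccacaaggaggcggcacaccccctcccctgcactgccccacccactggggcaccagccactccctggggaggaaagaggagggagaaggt

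The Gfi1b window held 1 GATA word, which began 120 bases before the start, and the Gata1 window held none. RefSeq windows were at hand for 8 of the 10 genes, 13 windows in all, with several starts for Gata2, Tal1, Mef2c and Runx1. A GATA word stood in 2 of these 13 windows, that of Gfi1b and the first of Tal1 (205 bases before the start), and in 26.5% of all 32851 windows of the same length. The ETS word CCGGAA stood in 2 of the 13 windows (Meis1 and the second of Runx1) against 12.0% of all windows, the RUNX word TGTGGT in 1 (Meis1) against 14.05%, and the MEIS word TGACAG in 0 against 15.9%. A word is a match of letters in a short window and says nothing about binding.

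After filtering, 3683 RO-3066 cells and 5833 DMSO cells were kept, with median depths of 34760 UMIs in RO-3066 and 24011 UMIs in DMSO. Likely doublets, 3.03% of RO-3066 and 4.91% of DMSO barcodes past the filters, were left out, and the libraries shared 7 cell barcodes. Pf4-high cells were 255 of the RO-3066 cells (6.92%, 6.12 to 7.79) and 450 of the DMSO cells (7.71%, 7.04 to 8.43). They were the deeper cells, with a median of 89951 UMIs in RO-3066 and 60404.5 in DMSO, against 33085.5 and 23371 in the other cells of the same libraries. The band around the gate, 0.9% to 1.1% of UMIs from Pf4, held 80 RO-3066 and 115 DMSO cells. All 14 stem cell genes listed were above 1 CPM in both libraries, Hlf at 72.2 CPM in RO-3066 and 61.1 CPM in DMSO, and Mecom at 67.3 and 65.3 CPM in the same order. In Pf4-high cells the same 14 genes summed to 359 CPM in RO-3066 and 251 CPM in DMSO, against 568 and 502 CPM in the other cells.

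Over all cells, the 10 genes summed to 1489.98 CPM in RO-3066 and 1251 CPM in DMSO. Gfi1b was the 1 gene at least 1.5-fold higher in RO-3066, a bound passed by 5.31% of the 9333 genes that reached 5 CPM in RO-3066 or DMSO, and 0 of the 10 were at least 1.5-fold lower (2.12% of all). In the other cells Gfi1b and Gata1 passed the bound upwards, 2 of 10 against 5.14% of 9337 genes, and 0 passed it downwards (1.97% of all). Among cells of 15000 to 40000 UMIs both calls were lost, with log2 ratios in other cells of 0.17 for Gfi1b and -0.79 for Gata1, Gata1 then past the bound downwards. In Pf4-high cells Gfi1b and Nfe2 passed it, 2 of 10 against 10.2% of 9165 genes, and again 0 downwards (7.1%). Both of these calls were lost with cells thinned to 10000 UMIs (log2 ratios of 0.48 for Gfi1b and 0.49 for Nfe2) and with a Pf4 gate of 2% (0.51 and 0.47), in the same direction. The median log2 ratio of the 10 genes was 0.25 over all cells, -0.07 in Pf4-high cells and 0.39 in other cells, beside medians over all genes of -0.003, -0.07 and 0.01. The genes counted are few, and with 1 library a side these shares describe the 2 libraries and not the treatments.

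Gata1 (chrX:7959260-7978071, minus strand) encodes the zinc-finger factor that both megakaryocytes and red cells need to mature. Its level was 61.5 CPM (58.5 to 64.6) in RO-3066 and 52.4 CPM (50.1 to 54.9) in DMSO among Pf4-high cells, and 28.01 CPM (27.1 to 28.9) in RO-3066 and 16.03 CPM (15.4 to 16.7) in DMSO among the other cells. The fold of RO-3066 over DMSO was 1.17 (1.096 to 1.25) in Pf4-high cells and 1.75 (1.66 to 1.84) in other cells. The value in other cells depended on depth, as it turned to a log2 ratio of -0.79 among cells of 15000 to 40000 UMIs and was 0.37 in cells thinned to 10000 UMIs, under the bound. The intervals of the 4 levels did not overlap, and the order ran from Pf4-high RO-3066 cells through Pf4-high DMSO cells and other RO-3066 cells down to other DMSO cells. After every cell was thinned to 10000 UMIs, a Gata1 UMI was found in 48.8% (42.5 to 55.2) of Pf4-high cells in RO-3066 and 38.5% (33.9 to 43.2) in DMSO, and in 13.7% (12.5 to 14.9) and 10.4% (9.63 to 11.3) of the other cells. Unthinned, those shares were 94.9%, 86.7%, 33.9% and 21.5%, so that most Pf4-high cells of either library held at least 1 Gata1 UMI. No cell in either library passed the gate set for granule protease cells, which would have shown the share of Gata1 in cells that should lack it. Shares are also given for the cells with the least Pf4, group 1 of 10 equal groups per library ordered by Pf4 share. Thinned in the same way, group 1 had Gata1 in 0.298% (0.00753 to 1.65) of 336 RO-3066 cells. In DMSO it was 0.703% (0.192 to 1.79) of 569 cells. The median depths of group 1 were 19972 UMIs in RO-3066 and 20815.5 UMIs in DMSO. Unthinned, 2.44% of its RO-3066 and 3.08% of its DMSO cells held Gata1. Group 1 was chosen by Pf4, and Gata1 rose along the Pf4 order. Its level was 1.24 CPM in group 1 and 59.5 CPM in group 10 of RO-3066, and 1.62 and 50.9 CPM in DMSO. These shares therefore cannot serve as a background rate of detection.

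Gata2 (chr6:88193891-88207032, plus strand), the GATA factor of stem and progenitor cells that Gata1 displaces from shared sites as erythroid cells mature, differed far less between its highest and lowest class. Its level was 136 CPM in RO-3066 and 156 CPM in DMSO among Pf4-high cells, and 135 CPM in RO-3066 and 123 CPM in DMSO among the other cells. The DMSO Pf4-high cells stood highest, the DMSO other cells lowest, and the intervals of the 2 RO-3066 classes overlapped. The folds of RO-3066 over DMSO were 0.869 (0.832 to 0.907) in Pf4-high cells and 1.103 (1.08 to 1.13) in other cells, on either side of 1.

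Zfpm1 (chr8:122282141-122337251, plus strand) encodes FOG1, the cofactor that GATA1 needs on most megakaryocyte genes. It was at 368 CPM in RO-3066 and 374 CPM in DMSO among Pf4-high cells, a fold of 0.984 (0.958 to 1.01) whose interval holds 1. Among the other cells it was at 232 CPM in RO-3066 and 155 CPM in DMSO, a fold of 1.496 and the value just outside the 1.5-fold bound. Nfe2 in Pf4-high cells was the value just inside it. Tal1 (chr4:115056426-115071755, plus strand), the helix-loop-helix factor that joins GATA factors to Lmo2 and Ldb1, was lower in RO-3066 in Pf4-high cells, at 76.9 CPM in RO-3066 against 99.8 CPM in DMSO. Among the other cells it stood at 55.99 CPM in RO-3066 and 53.2 CPM in DMSO. The folds were 0.7703 (0.729 to 0.814) in Pf4-high cells and 1.05 (1.02 to 1.09) in other cells.

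Gfi1b (chr2:28609450-28621982, minus strand), a zinc-finger repressor that both lineages require and that works with the histone demethylase Kdm1a, was the member furthest above DMSO. It reached 114 CPM (110.3 to 119) in RO-3066 and 71.4 CPM (68.6 to 74.3) in DMSO among Pf4-high cells, and 67.04 CPM (65.7 to 68.4) in RO-3066 and 37.2 CPM (36.2 to 38.3) in DMSO among other cells. The folds of RO-3066 over DMSO were 1.601 (1.52 to 1.69) and 1.7999 (1.74 to 1.86), the first in Pf4-high and the second in other cells. Thinned cells with a Gfi1b UMI were 60.7% (54.4 to 66.8) in RO-3066 and 46.8% (42.1 to 51.5) in DMSO among Pf4-high cells, and 37.5% (35.8 to 39.1) in RO-3066 and 25.9% (24.7 to 27.1) in DMSO among the other cells. Level and share ranked the 4 classes in the same order, with both Pf4-high classes above both classes of other cells.

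Nfe2 (chr15:103248212-103258403, minus strand) encodes the p45 subunit of NF-E2, which late megakaryocytes need to release platelets. It was higher in RO-3066 in both classes, at 114 CPM (109.9 to 118) in RO-3066 against 74.7 CPM (71.8 to 77.6) in DMSO in Pf4-high cells. In other cells it was at 95.3 CPM (93.7 to 96.98) in RO-3066 against 69.6 CPM (68.2 to 71.01) in DMSO. The folds were 1.53 (1.45 to 1.61) in Pf4-high and 1.37 (1.33 to 1.41) in other cells. Both RO-3066 classes lay above both DMSO classes, which Gata1 did not do.

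Fli1 (chr9:32422204-32542861, minus strand), an ETS factor of megakaryocyte genes, was the gene furthest below DMSO among Pf4-high cells, at 145 CPM (140.2 to 149) in RO-3066 and 203 CPM (198 to 207) in DMSO. Among the other cells it was at 110.4 CPM in RO-3066 and 99.01 CPM in DMSO. The folds were 0.715 (0.687 to 0.744) in Pf4-high and 1.11 (1.09 to 1.14) in other cells. Runx1 (chr16:92601466-92826149, minus strand), which binds DNA with Cbfb and is needed for stem cells to form and for megakaryocytes to mature, showed 142 CPM in RO-3066 and 154 CPM in DMSO in Pf4-high cells. In other cells Runx1 showed 119.5 CPM in RO-3066 and 92.4 CPM in DMSO, and its folds were 0.922 (0.884 to 0.962) and 1.29 (1.26 to 1.32). For both genes DMSO was the higher library in Pf4-high cells and RO-3066 in the other cells. Weighting cells equally, the log2 ratio of Runx1 in Pf4-high cells, whose direction turned, was 0.01 in place of -0.12.

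Mef2c (chr13:83504034-83667080, plus strand), a MADS-box factor of megakaryocytes and B cells, was at 842 CPM in RO-3066 and 761 CPM in DMSO in Pf4-high cells, and at 389.9 CPM in RO-3066 and 293 CPM in DMSO in other cells. The folds were 1.11 (1.09 to 1.13) and 1.33 (1.32 to 1.35), and every thinned Pf4-high RO-3066 cell held a Mef2c UMI (100% (98.5 to 100)) beside 99.6% in DMSO. Meis1 (chr11:18879817-19018985, minus strand), a homeodomain factor that stem cells and megakaryocyte progenitors use, was the exception among the 10 genes, since its lowest level was in Pf4-high RO-3066 cells. It had 105 CPM (101 to 109) there and 118 CPM (114 to 121) in Pf4-high DMSO cells. In other cells it had 140.4 CPM (138 to 142) in RO-3066 and 114 CPM (112 to 116) in DMSO, so the folds were 0.893 (0.8503 to 0.938) in Pf4-high and 1.23 (1.21 to 1.26) in other cells. GENCODE places further gene models over Fli1, Runx1, Zfpm1 and Meis1, and how reads in those overlaps were assigned is not given in the sources used here, so small differences in these 4 genes are less certain.

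**Figure D1:**
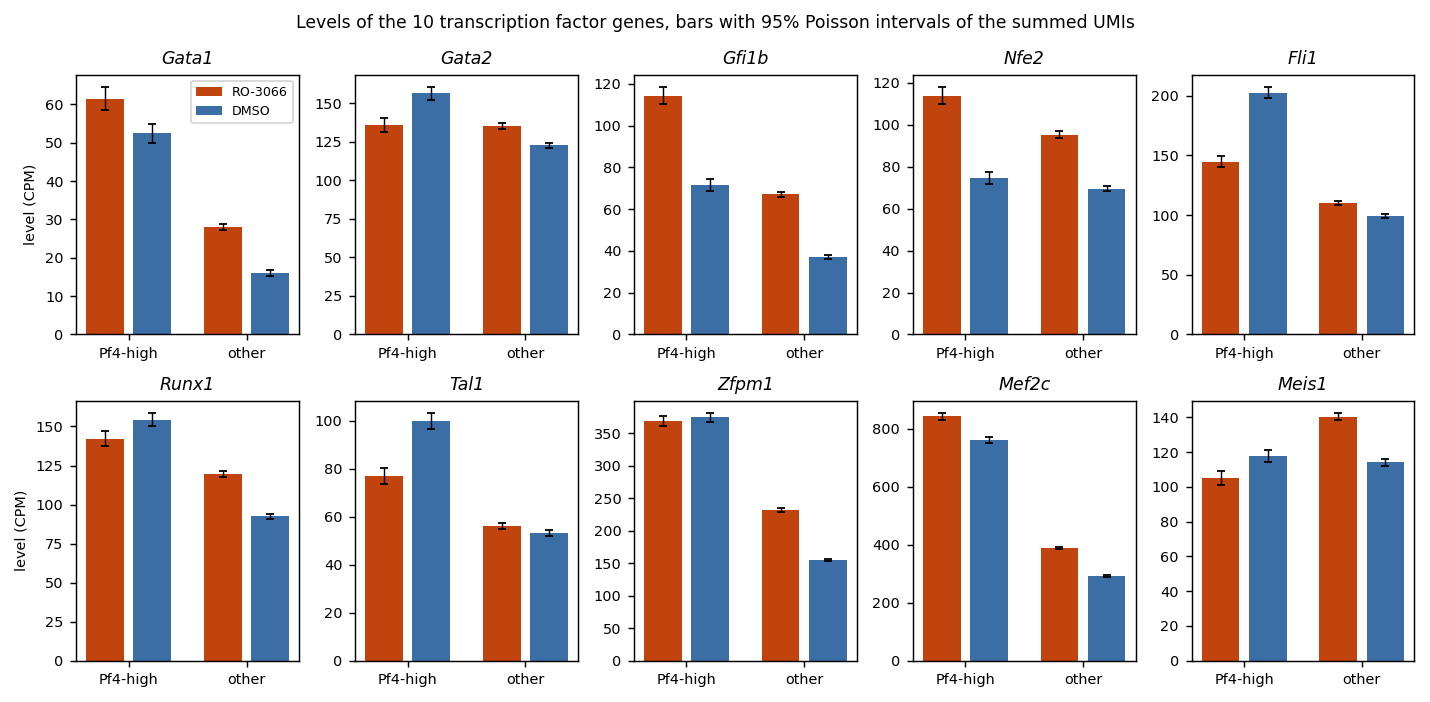
Levels (CPM, linear axis from 0) of the 10 genes in Pf4-high and other cells, RO-3066 bars left of DMSO bars, with 95% Poisson intervals of the summed UMIs. Gfi1b and Nfe2 stand higher in RO-3066 in both classes, while Fli1 in Pf4-high cells is at 145 CPM in RO-3066 and 203 CPM in DMSO.

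A level summed over a class cannot tell fewer positive cells from fewer UMIs per positive cell, so the shares of thinned cells with a UMI were compared as well. The share was larger in RO-3066 for 10 of 10 genes over all cells and over the other cells, and for 8 of 10 in Pf4-high cells, a count that was 5 of 10 with cells thinned to 5000 UMIs. How many of all genes had a larger share in RO-3066 was not counted. In thinned cells the median log2 ratio over all genes was 0.03 over all cells, -0.03 in Pf4-high and 0.03 in other cells. Several of the 8 were nearly tied, such as Tal1 at 53.97% in RO-3066 and 53.7% in DMSO. The exceptions in Pf4-high cells were Fli1, at 75.4% in RO-3066 and 79.9% in DMSO, and Runx1, at 70.6% and 72.04%. In Pf4-high cells the intervals of the 2 libraries overlapped for every gene but Gfi1b, and Nfe2 was at 62.7% (56.4 to 68.7) in RO-3066 and 52.8% (48.1 to 57.5) in DMSO. In other cells the shares were 66.9% in RO-3066 and 59.3% in DMSO for Gata2, 77.03% and 65.7% for Zfpm1, and 74.6% and 66.5% for Meis1. Tal1 had the closest pair there, 39.6% (37.96 to 41.3) in RO-3066 and 38.3% (36.98 to 39.6) in DMSO.

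The RO-3066 cells held more UMIs each, and the levels of several genes moved with UMIs per cell, so cells of like depth were set side by side. The bins of under 15000, 15000 to 25000, 25000 to 40000, 40000 to 60000 and at least 60000 UMIs held 353, 748, 1049, 705 and 828 RO-3066 cells and 449, 2735, 1951, 344 and 354 DMSO cells. Of these, 6, 5, 10, 14 and 220 RO-3066 cells and 6, 34, 104, 81 and 225 DMSO cells were Pf4-high. Gata1 was at 2.14, 3.48, 9.55, 30.2 and 52.5 CPM in RO-3066 and at 5.399, 10.4, 18.5, 28.7 and 49.3 CPM in DMSO over these bins. It was therefore lower in RO-3066 in the 3 shallower bins, with folds of 0.396 (0.156 to 0.887), 0.335 (0.248 to 0.444) and 0.516 (0.454 to 0.585), and near equal in the deepest bins, with 1.05 (0.941 to 1.18) and 1.07 (1.01 to 1.13). The summed level of Pf4 differed in the same bins, 771, 426, 655, 1665 and 7799 CPM in RO-3066 and 990.2, 1224, 2511, 6495 and 14879.8 CPM in DMSO, and its part in the Gata1 values was not tested.

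Nfe2 was the 1 gene higher in RO-3066 in all 5 bins with intervals above 1, with folds of 1.25, 1.25, 1.26, 1.36 and 1.43 from the shallowest to the deepest. Gfi1b was higher in 4 of 5 bins, with folds of 1.34, 1.31, 0.958, 1.22 and 1.48, the exception being 25000 to 40000 UMIs. Meis1 was higher in the 4 shallower bins, with folds of 1.13, 1.39, 1.36, 1.2003 and 0.989. The opposite held for Mef2c, lower in the 4 deeper bins with folds of 1.13, 0.889, 0.702, 0.6396 and 0.929, although its level over all cells was higher in RO-3066. Fli1 was lower in the 3 deeper bins and higher at 15000 to 25000 UMIs, with folds of 1.13, 1.19, 0.9204, 0.649 and 0.682 over the 5 bins, and Tal1 was lower in the 2 deepest, with 0.737 and 0.6903. The remaining genes, Gata2, Runx1 and Zfpm1, had folds between 0.887 and 1.24 in every bin. Pf4-high cells made up unlike parts of the same bin in RO-3066 and DMSO. At 40000 to 60000 UMIs they were 14 of 705 RO-3066 cells and 81 of 344 DMSO cells. The part of that in these folds was not tested.

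**Figure D2:**
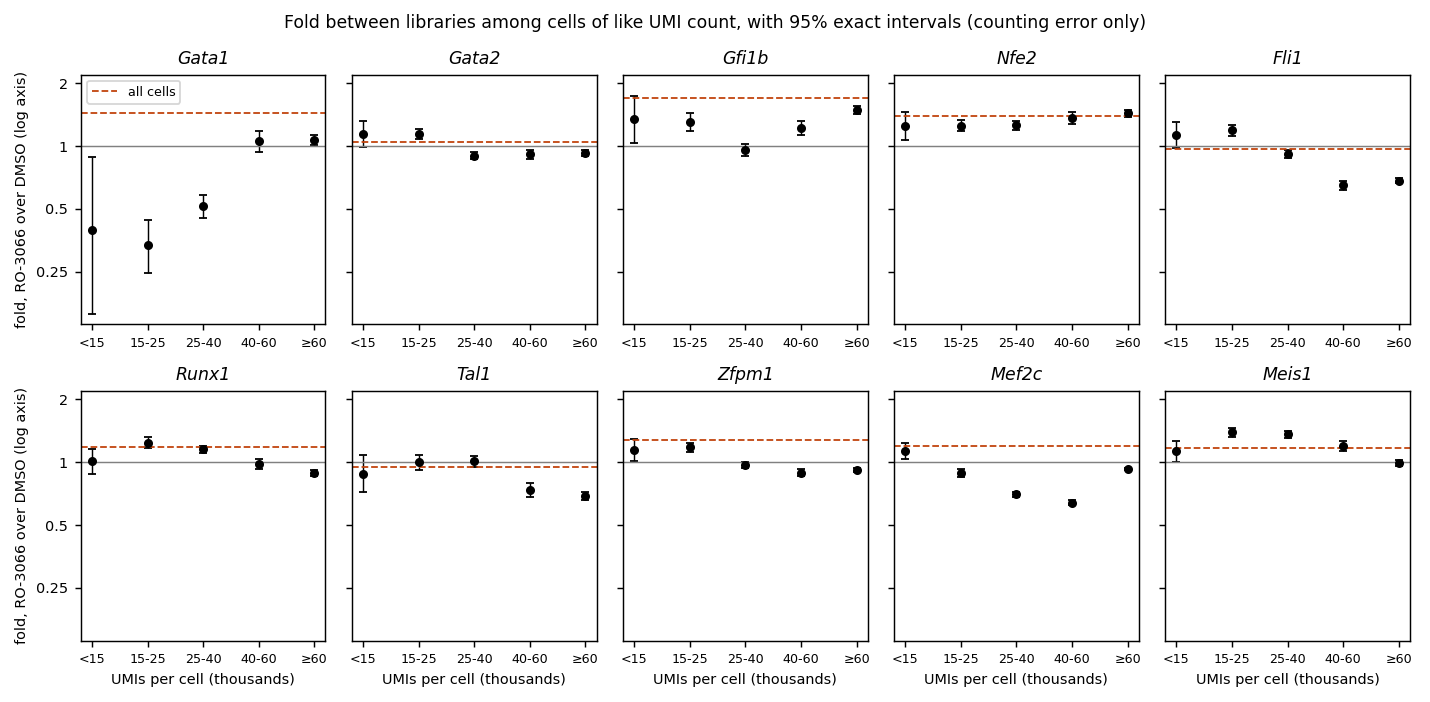
Fold of RO-3066 over DMSO (log axis) for each gene among cells binned by UMIs per cell (in units of 1000), with 95% exact intervals; the dashed line is the fold over all cells. Gata1 lies below 1 in the 3 shallower bins while its dashed line is at 1.44, and Nfe2 lies above 1 in all 5.

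Pf4-high cells were next set against the other cells of the same library. In RO-3066, Gata1, Gfi1b, Zfpm1 and Mef2c were at least 1.5-fold higher in Pf4-high cells, 4 of 10 against 7.9% of 9481 genes, and 0 were at least 1.5-fold lower (10.7% of all). In DMSO those 4 genes and Fli1, Runx1 and Tal1 were higher, 7 of 10 against 8.16% of 9231 genes, and again 0 lower (10.2%). The median log2 ratio of the 10 genes was 0.42 in RO-3066 and 0.91 in DMSO, against -0.09 and -0.02 over all genes. For Gata1 the fold was 2.195 (2.07 to 2.33) in RO-3066 and 3.27 (3.07 to 3.48) in DMSO, and for Mef2c 2.16 (2.13 to 2.195) and 2.603 (2.56 to 2.64). Gata2 stood at 1.004 (0.968 to 1.04) in RO-3066 and 1.27 (1.24 to 1.31) in DMSO. Nfe2 stood at 1.195 (1.15 to 1.24) and 1.07 (1.03 to 1.12), and Meis1 at 0.749 (0.719 to 0.7797) and 1.03 (0.997 to 1.07). How many of all genes had a larger fold in DMSO than in RO-3066 was not counted at any depth. Every one of the 10 folds except that of Nfe2 was larger in DMSO than in RO-3066, a difference that was not tested. The order turned with depth: among cells of 15000 to 40000 UMIs, with 15 Pf4-high cells in RO-3066, the ratio was larger in RO-3066 for 9 of the 10 genes, as for Gata1 with a log2 ratio of 2.69 in RO-3066 and 1.81 in DMSO. Among cells of at least 40000 UMIs it was larger in RO-3066 for Gfi1b, Mef2c and Nfe2. In those deep cells 1 gene passed the bound in each library, Mef2c in RO-3066 (log2 ratio 0.73) and Gata1 in DMSO (0.75). Of all genes, 559 of 9344 in RO-3066 and 320 of 8986 in DMSO passed it upwards there.

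The gate divides a continuum, so each library was also ordered by Pf4 share and split into 10 groups of equal size, group 1 with the least Pf4. From group 1 to group 10, Gata1 was at 1.24, 3.11, 4.06, 6.02, 8.86, 14.4, 28.7, 47.7, 52.9 and 59.5 CPM in RO-3066 and at 1.62, 1.69, 3.39, 3.71, 3.98, 10.01, 19.3, 33.1, 36.4 and 50.9 CPM in DMSO. It was thus close to 0 in the low groups. Its largest steps lay between groups 6 and 8 in RO-3066, and between groups 7 and 8 and groups 9 and 10 in DMSO. Group 8 lay wholly below the 1% gate, as its highest Pf4 share was 0.2697% in RO-3066 and 0.384% in DMSO. Depth went up along the same order, with median UMIs of 19972 in group 1 and 89156 in group 10 of RO-3066 and of 20815.5 and 53519 in DMSO. In thinned cells, where depth is equal, the Gata1 share was 6.21%, 18.2% and 37.1% in groups 6, 7 and 8 of RO-3066 and 6.49%, 15.9% and 26.03% in DMSO.

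Mef2c, Zfpm1 and Gfi1b were higher towards the top of the Pf4 order, from a level already present in group 1. Mef2c was at 190.1 CPM in group 1 and 826 CPM in group 10 of RO-3066, and at 155 and 749 CPM in DMSO. Zfpm1 was at 136 and 369 CPM in RO-3066 and at 83.8 and 364 CPM in DMSO, so the libraries met in group 10 and differed most in relative terms at the low end. Gfi1b kept RO-3066 above DMSO in all 10 groups, with 30.9 against 19.3 CPM in group 1 and 114 against 70.2 CPM in group 10.

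Gata2 had its highest level before the end of the order, 157 CPM in group 7 of RO-3066 and 174 CPM in group 8 of DMSO, against 142 CPM and 156 CPM in group 10. Fli1 varied little through group 6, between 83.3 and 93.7 CPM in RO-3066 and between 73.9 and 79.5 CPM in DMSO, and in group 10 was at 147 CPM in RO-3066 and 199.97 CPM in DMSO. Runx1 and Tal1 had the same crossing, with RO-3066 above DMSO in group 1 (92.3 against 70.5 CPM for Runx1) and below it in group 10 (75.6 against 96.5 CPM for Tal1). Nfe2 in DMSO stayed between 66.1 and 73.8 CPM, while in RO-3066 its lowest value was 86.2 CPM in group 2 and its highest 113 CPM in group 10. Meis1 was level in RO-3066 up to group 7 (153 CPM) and then declined to 108 CPM, and in DMSO it ranged between 105 and 130.4 CPM.

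**Figure D3:**
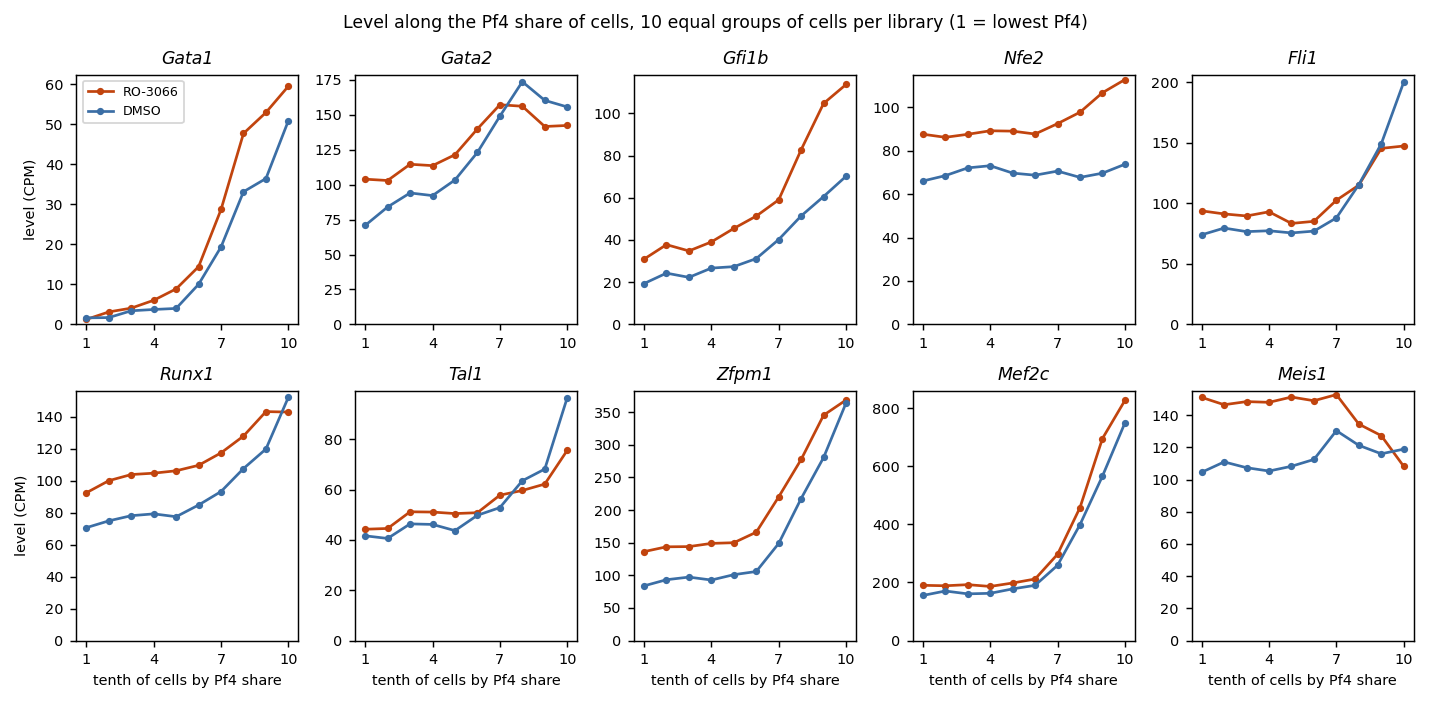
Level (CPM, axis from 0) of each gene in 10 equal groups of cells ordered by Pf4 share, 1 being the lowest, for RO-3066 and DMSO. Gata1 starts at 1.24 CPM in RO-3066 and 1.62 CPM in DMSO and ends at 59.5 and 50.9 CPM, whereas Meis1 in RO-3066 ends at its lowest level.

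Over these 20 groups of cells, log2 levels centred within each library gave a likeness between genes; the groups share their library and their depth order, so the coefficients are descriptions. Within the 10 genes, Zfpm1 and Mef2c were most alike (Pearson r = 0.983), followed by Runx1 and Zfpm1 (0.980) and Runx1 and Tal1 (0.978). Gata1 was most like Gfi1b (0.968), and Meis1 and Nfe2 were least alike (-0.721). Outside the list, of 5413 genes of at least 20 CPM, those most like Gata1 were Tuba8 (0.9805), Alox5 (0.9801) and Tnfaip2 (0.9801). Gata1 itself had r = 0.964 with Pf4, and Meis1 had -0.25. The groups were made by Pf4 share, so these values restate the levels along the Pf4 order. Genes that both rise along that order have a high r by this measure, and the spread of r over all genes is not given here. The nearest genes were Fbxo9 (0.968), Slc18a2 (0.957) and Hk1 (0.9397) for Gata2 and Tnik (0.996), Galk1 (0.994) and Tgfb1 (0.993) for Gfi1b. For Zfpm1 they were E2f8 (0.993) and Rap1b (0.993), and for Mef2c Rap1b (0.995), Rabgap1l (0.995) and Ehd3 (0.993). For Fli1 they were Kif2a (0.984) and Hsp90b1 (0.983), and for Runx1 Slc2a3 (0.986), Diaph1 (0.984) and Jarid2 (0.982). For Tal1 they were Dgkd (0.977), Diaph1 (0.969) and Slc2a3 (0.968), for Nfe2 Mrps21 (0.924), Rad54l (0.919) and Cit (0.915), and for Meis1 Ctcf (0.892), G3bp1 (0.891) and Mki67 (0.871).

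Co-detection was the share of thinned cells with a UMI of both genes, divided by the product of the 2 genes' shares, so that 1 is what independent detection gives. In other cells Gata1 and Gfi1b stood out, with 1.43 in RO-3066 and 1.48 in DMSO. Both were found in 243 RO-3066 cells, 7.35% (6.48 to 8.29), where the product of shares gives 5.13%, and in 212 DMSO cells, 3.997% (3.49 to 4.56), where it gives 2.704%. In Pf4-high cells the same ratio was 1.04 in RO-3066, from 78 of 252 cells, and 0.982 in DMSO, from 79 of 447 cells, close to independence. The next pairs by the mean of the 4 classes were Gata1 with Zfpm1, at 1.18 in RO-3066 and 1.26 in DMSO other cells, and Gata1 with Runx1, at 1.14 and 1.19. Every pair among the first 7 of the ranking held Gata1.

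The lowest 3 of the 45 ratios belonged to Gata1 with Meis1, Gata1 with Nfe2 and Nfe2 with Mef2c. In other cells these were 0.970 in RO-3066 and 1.02 in DMSO for Gata1 and Meis1, and 1.07 and 0.943 for Gata1 and Nfe2. Nfe2 with Mef2c was at 0.994 in RO-3066 and 0.996 in DMSO. None of these lay far from 1. Over all 45 pairs the median was 1.02 in RO-3066 and 1.04 in DMSO other cells, with 40 and 42 pairs above 1. No ratio was computed for pairs of genes outside the list. Whether counts of pairs above 1 differ from those of other genes is therefore not known. In Pf4-high cells every thinned RO-3066 cell held Mef2c, so the 9 pairs with Mef2c were fixed at 1 there, and Zfpm1, found in nearly every cell, left its pairs little room. Of the 36 pairs without Mef2c, 23 in RO-3066 and 22 in DMSO Pf4-high cells were above 1, and the ratios of all 45 ran over 0.933 to 1.08 in RO-3066 and 0.966 to 1.09 in DMSO. Gata1 and Gfi1b also both varied along the Pf4 order within the other cells, and the part of that in these ratios was not tested.

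**Figure D4:**
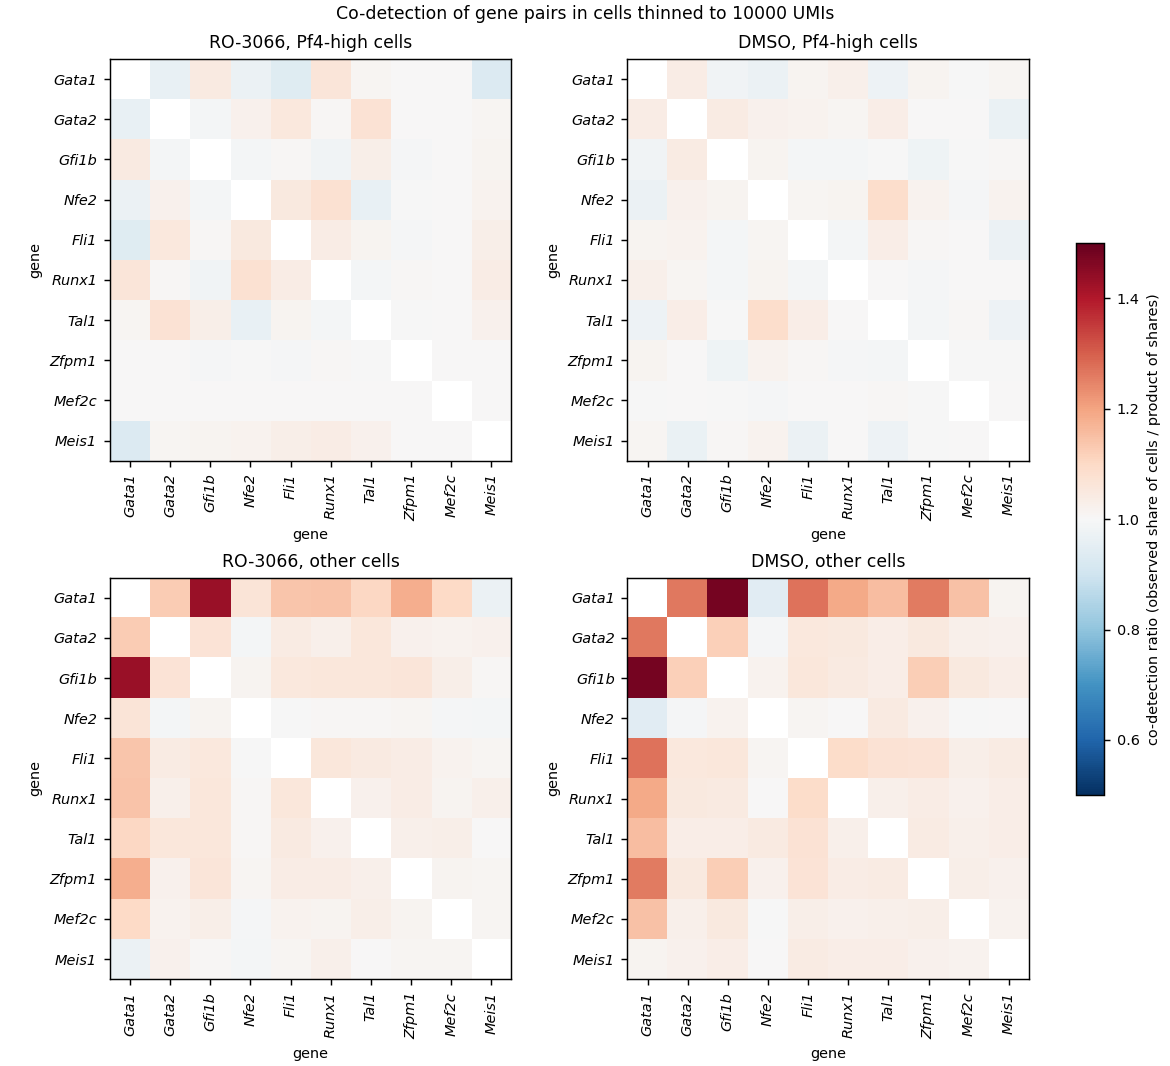
Co-detection ratio of each pair of the 10 genes in thinned cells, for RO-3066 (left) and DMSO (right), Pf4-high cells above and other cells below; red is above 1 and blue below. Gata1 with Gfi1b is the darkest cell among other cells (1.43 in RO-3066, 1.48 in DMSO), and the Pf4-high panels are pale.

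Thinned Pf4-high cells held a UMI of a mean of 7.11 of the 10 genes in RO-3066 and 6.78 in DMSO, and other cells of 5.76 in RO-3066 and 5.05 in DMSO. All 10 genes were found in 4.76% of Pf4-high cells in RO-3066 and 1.34% in DMSO, and in 0.695% and 0.321% of the other cells. At least 8 were found in 14.9% of other RO-3066 cells and 7.96% of other DMSO cells. No Pf4-high cell had fewer than 2 of them, and 3 RO-3066 and 15 DMSO cells among the others had 0.

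**Figure D5:**
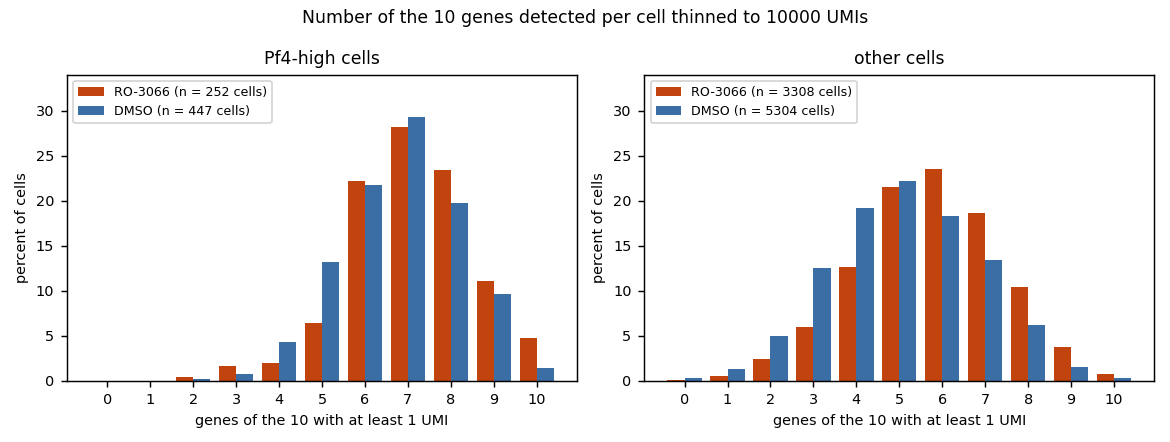
Percent of thinned cells (10000 UMIs each) by how many of the 10 genes they held a UMI of, Pf4-high cells left and other cells right, RO-3066 bars left of DMSO bars. The other cells peak at 6 genes in RO-3066 and 5 in DMSO, and the Pf4-high cells of both libraries at 7.

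Among other cells, those with a Gata1 UMI after thinning (453 in RO-3066, 554 in DMSO) were compared with those without. Mef2c was higher in the Gata1-positive cells by 1.93 (1.84 to 2.03) in RO-3066 and 1.85 (1.77 to 1.93) in DMSO, Gfi1b by 1.86 (1.66 to 2.08) and 1.702 (1.496 to 1.93), and Zfpm1 by 1.66 (1.56 to 1.76) and 1.79 (1.69 to 1.91). Fli1 was at 1.27 (1.16 to 1.39) in RO-3066 and 1.54 (1.42 to 1.66) in DMSO, and Gata2 at 1.26 (1.16 to 1.36) and 1.605 (1.495 to 1.72). Nfe2 and Meis1 moved least, Nfe2 at 1.13 (1.02 to 1.25) in RO-3066 and 0.916 (0.818 to 1.02) in DMSO and Meis1 at 0.904 (0.829 to 0.984) and 1.08 (0.994 to 1.17). The positive cells were deeper before thinning, with medians of 58343 UMIs against 31245 in RO-3066 and 27935.5 against 23124 in DMSO. In Pf4-high cells the same split gave intervals that held 1 for 8 of the 9 genes in RO-3066 and 9 of 9 in DMSO, the exception being Runx1 in RO-3066 at 1.24 (1.003 to 1.54).

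Of 14 listed partners of GATA and Tal1 complexes, 13 passed 5 CPM in a library, with a median log2 ratio of 0.06. In RO-3066, 0 were at least 1.5-fold lower (2.12% of all genes) and 1 was at least 1.5-fold higher (5.31%). That gene was Cbfa2t3, the ETO2 corepressor of such complexes, at 224 CPM in RO-3066 and 109.8 CPM in DMSO, a fold of 2.04 (2.004 to 2.08). Its scaffold neighbours were close to even, Ldb1 at 49.4 CPM in RO-3066 and 42.6 CPM in DMSO and Ssbp4 at 129 and 111 CPM. Between Pf4-high and other cells 0 of the 13 passed the bound in either library, a count near the shares of all genes that did, 7.9% higher and 10.7% lower in RO-3066 and 8.16% and 10.2% in DMSO. Of 15 other megakaryocyte transcription factors, 13 were measured over all cells and 0 passed the bound either way there (median 0.13). Among those of at least 20 CPM, the largest ratios were those of Spi1, the myeloid ETS factor, at 80.9 CPM in RO-3066 and 58.9 CPM in DMSO, Bach1, a repressor at small-Maf sites, at 29.7 and 22.4 CPM, and Gabpa at 17.8 and 22.7 CPM. In Pf4-high cells Spi1 stood at 40.8 CPM in RO-3066 and 21.9 CPM in DMSO, and in other cells at 88.5 and 67.97 CPM. Of the 15 factors, 14 were measured in Pf4-high cells, 3 higher in RO-3066 (10.2% of all genes) and 0 lower (7.1%).

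Of 11 erythroid transcription factors, 9 were measured over all cells, with a median log2 ratio of 0.35. In RO-3066, 2 were higher (5.31% of all genes), Sox6 and E2f2, both named after their values were seen, and 0 lower (2.12%). The largest ratios among those of at least 20 CPM were those of Zbtb7a at 79.4 CPM in RO-3066 and 62.8 CPM in DMSO, Bcl11a at 60.8 and 52.6 CPM and Myb at 176 and 155 CPM. Klf1, the erythroid factor that opposes Fli1, was under the 5 CPM bound at 2.94 CPM in RO-3066 and 0.9903 CPM in DMSO. Myb was 46.8 CPM in Pf4-high and 201 CPM in other cells of RO-3066 and 47.2 and 181 CPM in DMSO, the reverse of the pattern of Gata1. Of 10 partners of Meis1, 8 were measured and 0 passed the bound (median 0.02), with Hoxa9 at 27.01 CPM in RO-3066 and 35.1 CPM in DMSO and Hoxa7 at 20.2 and 25.2 CPM. Hoxa9 was at 4.77 CPM in Pf4-high and 31.2 CPM in other cells of RO-3066, and at 3.63 and 42.8 CPM in DMSO.

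Genes of platelets and megakaryocytes, many of them known targets of these factors, were listed as well. Of 18 such genes, 15 were measured over all cells, and 7 were at least 1.5-fold higher in RO-3066 (5.31% of all genes) and 0 lower (median 0.54). In other cells 12 of 13 were higher, beside 5.14% of all genes, and in Pf4-high cells 5 of 16, beside 10.2% of all genes. The other cells had a median of 33085.5 UMIs in RO-3066 and 23371 in DMSO. No comparison of these platelet and megakaryocyte genes at like depth is given here. The 16 genes measured in Pf4-high cells held 5 that were higher in RO-3066. The 5 were Ppbp, Treml1, Thbs1, Mmrn1 and Nrgn, named after their values were seen. Over all cells Treml1, a platelet granule receptor, was at 78.9 CPM in RO-3066 and 29.1 CPM in DMSO. Over the same cells Mmrn1 was at 43.6 and 22.3 CPM and Nrgn at 617 and 326 CPM. Of 16 erythroid genes 6 were measured (median 0.66), 3 higher (5.31% of all genes), among them Aqp1, and 1 lower (2.12%). The adult globin gene Hbb-bt was at 447 CPM in RO-3066 and 194 CPM in DMSO. Blvrb was at 118 and 53.8 CPM and the transferrin receptor gene Tfrc at 17.5 and 39.02 CPM. The red cell anion exchanger Slc4a1 had 0 UMIs in both libraries, which allows up to 0.0183 CPM in RO-3066 and 0.0172 CPM in DMSO, and Alas2 was at 0.0183 and 0.0229 CPM.

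Markers of other cells that share Gata1 or Gata2 were low. The 10 mast cell and basophil genes summed to 9.303 CPM in RO-3066 and 7.64 CPM in DMSO, with 7 of 10 under 1 CPM in both libraries and Tpsb2 and Mcpt4 at 0, and the 6 eosinophil genes to 0.147 and 0.0229 CPM, with Ear1 and Ear6 at 0. Cpa3, a mast cell protease gene, was the 1 gene of the mast cell list above 5 CPM over all cells, at 6.66 CPM in RO-3066 and 1.68 CPM in DMSO. In other cells 2 genes of that list were measured, 1 higher in RO-3066 (5.14% of all genes) and 1 lower (1.97%). The 12 granule protease and monocyte genes summed to 163 CPM in RO-3066 and 161 CPM in DMSO. Of these, 3 were measured and 1 was higher (5.31% of all genes), Lyz2 at 69.2 CPM in RO-3066 and 43.5 CPM in DMSO. Prtn3 was at 70.3 and 96.5 CPM. The 10 lymphoid genes summed to 24.9 and 12.2 CPM, nearly all of it Cd79b at 22.5 CPM in RO-3066 and 11.1 CPM in DMSO. Of the 14 stem cell genes 12 were measured (median 0.23), 3 higher in RO-3066 (5.31% of all genes), among them Esam and Ltb, and 0 lower (2.12%). Esam was at 27.9 CPM in RO-3066 and 17.7 CPM in DMSO and Kit at 102 and 68.6 CPM. Aqp1, Cpa3 and Ltb were named after their values were seen. The part these other genes have in the values of the 10 factors was not tested.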

How the data were processed

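The authors deposited, per library, a matrix of whole-number UMI counts per gene and barcode, not normalized. Cell Ranger 5.0.1 and mm10 stand in the submitters' processing notes, and version 7.1.0 stands in the matrix per the file headers. The sources used here do not say which of them produced the counts, with what annotation, or whether intron reads were included. Of 32285 gene identifiers, 32235 were found in GENCODE vM21 (mm10), the source of the coordinates. The 10 genes and the other 11 gene lists were chosen with earlier results of these data known.

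Barcodes under 1000 UMIs or 500 genes, or over 10% mitochondrial UMIs, were dropped, which left out 84 of 3882 RO-3066 and 26 of 6160 DMSO barcodes. Doublets were called by simulation (2000 variable genes, 30 components, 50 neighbours), removing 0.8% of barcodes per 1000 barcodes. The kept cells held 163496162 UMIs in RO-3066 and 174699573 UMIs in DMSO. Levels are CPM of summed UMIs, and ratios for calls are of CPM plus 1. A gene with at least 5 CPM in either class was called past 1.5-fold. For shares and co-detection each cell was thinned to 10000 UMIs, which left out 123 RO-3066 and 82 DMSO cells. Intervals (95%) are exact: Poisson for levels, conditional binomial for folds and Clopper-Pearson for shares, and they cover counting error only. With 1 library per group nothing was tested across samples. The fold and thinning steps were tested on simulated data. Named from each list were the 3 genes of at least 20 CPM with the largest ratio over all cells, and the 3 genes outside the list most like each of the 10. A few genes that these rules name are not reported here. The gates for granule protease and for mast cell genes (0.5% of UMIs) held no cell. Alternatives were other scalings, weights, filters, depths, pseudocounts, folds and Pf4 gates. Python 3.11.15, numpy 2.4.6, scipy 1.17.1, pandas 2.3.3, scikit-learn 1.9.0 and matplotlib 3.10.9 were used.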

Additional observations from a re-analysis of the deposited data

Results flagged for a closer look

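For 5 of the 10 genes the fold of RO-3066 over DMSO lay below 1 in Pf4-high cells and above 1 in other cells, with both counting intervals clear of 1. Gata2 had 0.869 in Pf4-high and 1.103 in other cells, Fli1 0.715 and 1.11, Runx1 0.922 and 1.29, Tal1 0.7703 and 1.05, and Meis1 0.893 and 1.23. With 1 library per treatment the difference between the classes was not tested for any of them. How many of all genes had folds on either side of 1 in this way was not counted. Over all genes the median log2 ratio was -0.07 in Pf4-high cells and 0.01 in other cells. Among cells of at least 60000 UMIs, an alternative added after the data were seen, the log2 ratios in other cells were -0.07 for Gata2, -0.42 for Fli1, -0.09 for Runx1 and -0.31 for Tal1, below 0 as in Pf4-high cells, and 0.02 for Meis1. Among cells of 15000 to 40000 UMIs, which hold only 15 Pf4-high RO-3066 cells, the ratios in Pf4-high cells lay above 0 for all 5 genes, between 0.32 for Runx1 and 0.92 for Tal1.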

How the results depend on the processing

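No paired analysis was possible because each treatment had 1 library. The precision of every value is set by counting and by the cells kept, and the spread between libraries of one treatment is unknown. With CPM, 1 gene of the 10 was at least 1.5-fold higher in RO-3066 over all cells, 2 in Pf4-high and 2 in other cells, and 0 were lower in each. Restricting to cells of 15000 to 40000 UMIs gave 0 higher and 1 lower over all cells and 0 higher and 1 lower in other cells, the lower gene being Gata1, whose log2 ratio in other cells became -0.79. Of all genes, 220 of 9368 were lower over all cells of that depth and 216 of 9361 in the other cells. Of the same genes, 537 were higher over all cells and 506 in the other cells. Cells of at least 60000 UMIs, added after the data were seen, gave 0 higher over all cells, 1 in Pf4-high and 1 in other cells. Of all genes, 910 of 9248 were higher over all cells, 931 of 9183 in Pf4-high and 852 of 9270 in other cells of that depth. Weighting cells equally gave 1 higher in other cells, beside 409 of 9400 of all genes. Thinning to 10000 UMIs gave 0 in Pf4-high and 1 in other cells, beside 1254 of 9241 and 416 of 9385 of all genes. A pseudocount of 5 gave 1 in Pf4-high cells, beside 649 of 9165 of all genes. A bound of 2-fold gave 0 higher in each class. Of all genes, 124 of 9333 passed it over all cells, 382 of 9165 in Pf4-high and 120 of 9337 in other cells. A Pf4 gate of 2% gave 0 higher in Pf4-high cells, beside 1014 of 9143 of all genes. For Pf4-high over other cells, 4 genes in RO-3066 and 7 in DMSO passed. Cells of at least 40000 UMIs gave 1 in RO-3066 and 1 in DMSO, beside 559 of 9344 and 320 of 8986 of all genes. A Pf4 gate of 2% gave 2 in RO-3066, beside 880 of 9512 of all genes. Cells of 15000 to 40000 UMIs gave 9 in RO-3066, from 15 Pf4-high cells, beside 1679 of 9689 of all genes. The count of genes with a larger share in RO-3066 in Pf4-high cells was 8 at 10000 UMIs and 5 at 5000 UMIs. The cause of these changes was not tested. Median-ratio scaling moved the median over all genes in Pf4-high cells by less than 0.1 on the log2 scale, but the share of called genes that were higher was 70.0%, against 58.8% with CPM, and the log2 ratio of Zfpm1 there was 0.05 in place of -0.02. Of the other single values, 429 moved beyond their counting interval and 400 did not, and of the other counts 111 stayed within 1.5 times. These totals are no measure of stability, as part of them was fixed in advance. A minimum level or a fold bound cannot move a log2 ratio, and a Pf4 gate cannot move a ratio over all cells. Shares change with the depth of thinning in any case.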
